A study of Mus musculus with 6 samples.

Results

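Interferon-stimulated genes were followed through single-cell RNA sequencing of H22 tumors, a murine hepatocellular carcinoma (HCC) line grown in the liver of mice. The 39 genes were given as a list of symbols, and 38 of them had a row among the 34099 genes of the deposited matrices. Mx2 was not analysed here. All animals were wild-type male C57BL/6J mice that were obtained at 8 weeks of age and later carried the same tumor cells. The 3 control mice received no stressor, and the 3 stress mice went through chronic unpredictable mild stress, which means 2 changing stressors a day for 21 days before the tumor cells were implanted. Each mouse gave 1 library, and the authors assigned the 58794 cells kept to 10 cell types and 28 clusters.

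Interferons are secreted proteins that warn cells of infection or damaged DNA. Type I interferons and interferon gamma bind separate receptors, which signal through Janus kinases to transcription factors of the STAT family, and these then turn on target genes in the nucleus. The targets hold back viruses, mark proteins with ISG15, present antigens and, in tumors, shape how T cells and dendritic cells (DCs) respond.

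Of the 38 genes, 30 had a promoter in the RefSeq tables used here (GRCm38.p6, from 250 bases before to 50 bases after the transcription start). The core of the interferon-stimulated response element, searched as GAAA, any 2 bases and GAAA on either strand, was found in 18 of these 30 (60%), against 3.99% of 27025 genes with a promoter. Among the 7 members with a call in at least 1 cell type or cluster, 4 held this core (Isg15, Ifit1, Rsad2 and Ifih1) and Oasl1, Ifi35 and Xaf1 did not. The 3 promoter stretches below come from those 4 and are shown because they carry the element in the 150 bases before the start. Capitals mark each match, with overlapping matches joined. The stretches are Ifit1 at chr19:34640739-34640888 on the plus strand, Isg15 at chr4:156200819-156200968 on the minus strand and Rsad2 at chr12:26456453-26456602 on the minus strand, each read toward the gene.
Ifit1: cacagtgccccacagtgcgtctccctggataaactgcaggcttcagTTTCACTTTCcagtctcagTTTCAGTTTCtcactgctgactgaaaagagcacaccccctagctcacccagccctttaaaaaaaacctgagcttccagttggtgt
Isg15: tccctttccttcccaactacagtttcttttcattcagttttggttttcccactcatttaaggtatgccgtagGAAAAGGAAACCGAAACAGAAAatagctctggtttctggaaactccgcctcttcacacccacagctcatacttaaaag
Rsad2: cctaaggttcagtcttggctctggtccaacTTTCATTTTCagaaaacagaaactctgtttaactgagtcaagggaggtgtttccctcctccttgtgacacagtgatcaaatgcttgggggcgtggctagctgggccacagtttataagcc
In Ifit1 the 2 matches began 104 and 85 bases before the start, in Isg15 the 3 overlapping matches began 78, 72 and 66 bases before it, and in Rsad2 the match began 120 bases before it. A match describes these letters and not the binding of a factor.

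Levels are given as CPM, the UMIs of a gene per 1000000 UMIs of 1 cell type in 1 mouse, where a UMI is 1 captured RNA molecule. A higher CPM can mean more cells with the transcript or more molecules per cell, and the summed counts cannot tell these apart. The libraries held 149558935 to 187728350 UMIs each, and any pair of libraries shared 13 to 40 cell barcodes. Control libraries were counted with Cell Ranger 9.0.0 and stress libraries with 7.1.0, and an effect of this version cannot be told apart from one of stress. The labelled cell types carried their defining markers as a whole, with exceptions. DC cluster 19, which held 52.4% to 77.9% of the DC UMIs, had dendritic markers at 212.8 to 698.3 CPM and tumor markers at 522 to 815.4 CPM, against 6186 to 10000 and 27.1 to 174.1 CPM in cluster 20, the other DC cluster. Inflammatory myeloid cells also carried neutrophil markers at 16920 to 35940 CPM. B cells carried plasmacytoid dendritic markers at 365.4 to 2206 CPM beside B markers at 994.3 to 5347 CPM. In stress mice 1 and 2 the plasmacytoid dendritic markers were the higher ones. That list was not particular to B cells, since it stood at 1463 to 2291 CPM in endothelial cells. No markers were listed for monocytic myeloid-derived suppressor cells (M-MDSCs), where monocyte markers were 8.37 to 52.7 CPM, against 2108 to 3311 CPM in monocytes. Tumor markers reached 547 to 859 CPM in M-MDSCs and 61.6 to 2313 CPM in hepatic stellate cells (HSCs) and are given for endothelial cluster 16 beside its results. The library of control mouse 1 was often the lowest for these genes. It was the lowest of the 6 mice in 36 of 37 members tested in monocytes, 32 of 35 in DCs, 31 of 36 in inflammatory myeloid cells and 28 of 37 in endothelial cells (ECs). The count was 18 of 36 in tumor cells, 18 of 32 in natural killer and T cells, and 8 of 14 in both B cells and M-MDSCs. Whether all genes share this pattern was not tested, so it may not be particular to the members.

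Across cell types the CPM of most members was lowest in tumor cells. For 30 of the 38 members tumor cells had the lowest mean CPM of the 10 cell types. Inflammatory myeloid cells had the highest mean for 11 members, ECs for 9, monocytes for 7, HSCs and neutrophils for 4 each, DCs for 2 and B cells for 1. HSCs had 6 to 50 cells per mouse and neutrophils 4 to 57. For the 4 members highest in HSCs by mean, HSCs were highest in only 1 or 2 of the 6 mice. For the 4 of neutrophils the same cell type was highest in 3 to 5 mice. The cell types were made from all genes of these cells, so this order is a description. CPM is a share of the UMIs, and UMIs per cell differed between cell types. The median per mouse was 21971 to 32523 in tumor cells and 1156 to 1988 in inflammatory myeloid cells. The order is therefore not one of molecules per cell.

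**Figure D1:**
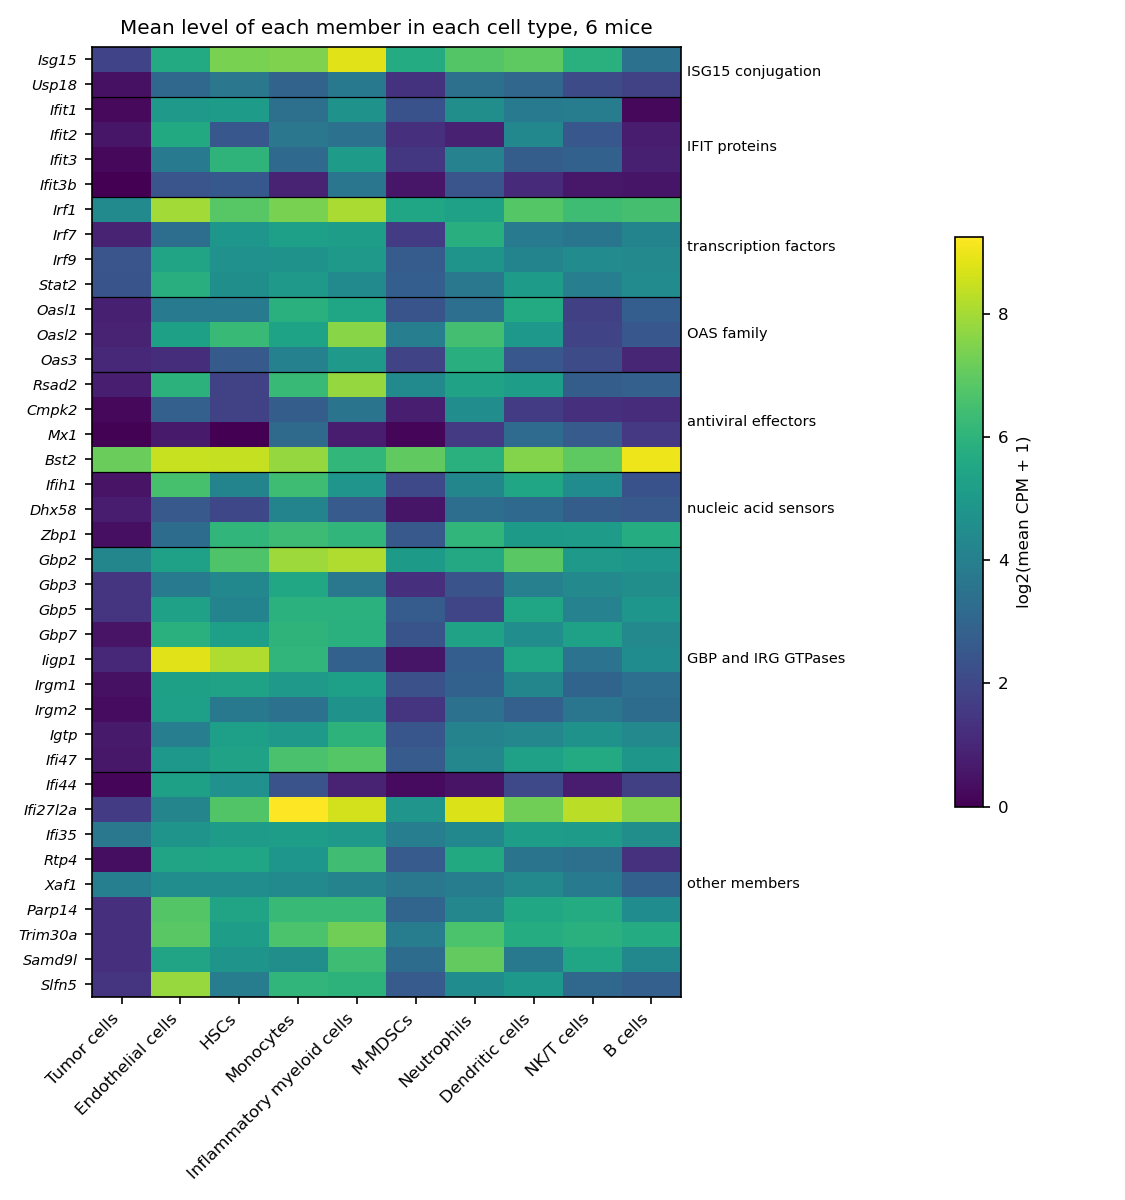
Mean level of the 38 members (vertical axis, grouped by role) in the 10 cell types (horizontal axis) over the 6 mice, as log2 of CPM plus 1 (color scale). The tumor cell column is dark except for Bst2, Irf1, Gbp2, Ifi35 and Xaf1, and ECs stand out for Iigp1 and Slfn5.

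Individual members followed different patterns. Isg15, the ubiquitin-like modifier, had a mean of 453.6 CPM in inflammatory myeloid cells, 174.6 in monocytes and 2.64 in tumor cells. Rsad2, which encodes the antiviral enzyme viperin, had 217.5 CPM in inflammatory myeloid cells, where it was highest in all 6 mice, and 73.8 in monocytes. The GTPase Iigp1, which attacks the vacuoles of intracellular parasites, had 458.5 CPM in ECs and 279.1 in HSCs. Slfn5 (226.1 CPM) and Ifit2 (47.9 CPM) were highest in ECs in all 6 mice. Neighbours in these orders were often close. Gbp5 had 59.0 CPM in monocytes and 58.9 in inflammatory myeloid cells, and Xaf1 had 22.3 CPM in HSCs and 22.1 in ECs, differences smaller than the spread between mice. The tumor cells kept Bst2, the surface protein tetherin, which made up 58.6% of their summed member level.

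In plain CPM the summed level of the 38 members did not overlap between control and stress mice in DCs and tumor cells. In DCs it was 493.8, 1438 and 968.5 CPM in control mice 1, 2 and 3, and 1716, 2045 and 1869 CPM in stress mice 1, 2 and 3, or 967 ± 472 and 1877 ± 164 (SD, n = 3). The stress mean was 1.94 times the control mean, and every stress mouse lay above every control mouse. Within each of the 2 DC clusters the groups did overlap. In cluster 19 the sum was 341.5, 828.6 and 558.4 CPM in control and 786.6, 797.5 and 936.7 CPM in stress mice, a ratio of 1.46. In cluster 20, where the level was higher, it was 876.6, 3236 and 2418 CPM in control and 2742, 4129 and 3180 CPM in stress mice, a ratio of 1.54, and stress mice held a larger share of their DCs in that cluster (values below). Without control mouse 1 these ratios were 1.21 and 1.18. In tumor cells the sum was 185.5, 238.1 and 198.5 CPM in control mice and 251.9, 258.4 and 286.5 CPM in stress mice. The ratio was 1.28, with no overlap in plain CPM. The TMM scaling used in the gene tests below had factors of 0.977 for control mouse 2 and 1.09 for stress mouse 2. Divided by these factors, the tumor cell sum of stress mouse 2 falls below that of control mouse 2, and the groups overlap. In ECs the groups overlapped, with 2226 ± 726 and 2668 ± 166 CPM, since control mouse 3 (3024 CPM) was above all stress mice (2525 to 2851 CPM). Groups also overlapped in monocytes (2241 ± 1432 and 3070 ± 957), natural killer and T (NK/T) cells (1028 ± 211 and 1286 ± 117), B cells (1020 ± 430 and 1493 ± 350), M-MDSCs (353 ± 217 and 540 ± 212) and inflammatory myeloid cells (2860 ± 2960 and 3350 ± 1803). HSCs and neutrophils, with 128 and 175 cells in all, were the cell types whose control mean was the higher one, 2186 against 1668 CPM and 1689 against 1499 CPM. Without control mouse 1 the log2 ratio of the sums fell from 0.96 to 0.64 in DCs, from 0.26 to 0.07 in ECs, from 0.45 to 0.09 in monocytes, from 0.55 to 0.24 in B cells, from 0.32 to 0.17 in NK/T cells, from 0.61 to 0.36 in M-MDSCs, from 0.36 to 0.28 in tumor cells, from -0.39 to -0.88 in HSCs and from -0.17 to -0.65 in neutrophils, and in inflammatory myeloid cells it turned from 0.23 to -0.26. Bst2, itself on the plasmacytoid dendritic marker list, made up 41% of the B cell sum. In B cells the mean of that marker list was 847.8 CPM in control and 1612 CPM in stress mice, that of monocyte markers 255.4 and 533.3 CPM and that of B markers 3603 and 2340 CPM, and their part was not tested. No p is given for these sums.

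**Figure D2:**
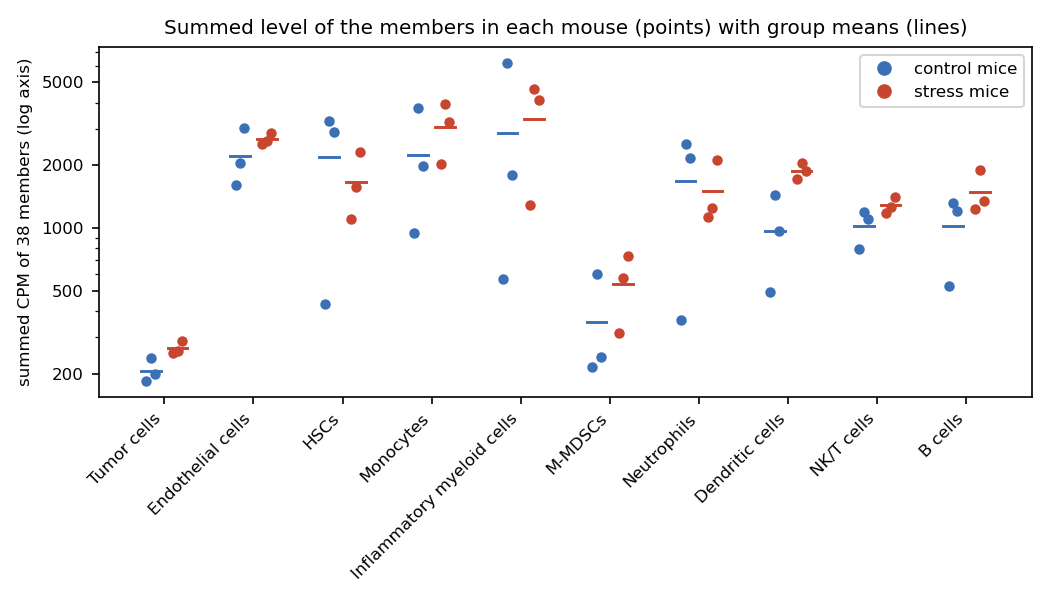
Summed CPM of the 38 members (vertical log axis) in each cell type (horizontal axis), with 1 point for each control mouse (blue) and stress mouse (red) and lines for the group means. In plain CPM, without TMM scaling, points of the 2 groups do not overlap in tumor cells and DCs. The control points of inflammatory myeloid cells run from 571.2 to 6203 CPM.

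The comparison of stress with control mice was then made gene by gene, on the UMIs of each cell type added up within a mouse. The test was edgeR's quasi-likelihood test (Benjamini-Hochberg adjusted over all genes tested in that cell type, threshold 0.05), and its log2 fold change of stress over control is written log2FC. Of the 38 members, 6 passed the test in at least 1 of the 8 cell types tested, namely Isg15, Ifit1, Oasl1, Rsad2, Ifi35 and Xaf1. These are 15.8% of the members, near the 12.4% of all 19769 genes tested that were called higher in at least 1 of these cell types. Isg15 passed in 3 cell types and Ifi35 in 2. Every one of these calls was higher in stress mice. Among 9 members that could be tested in all 8 cell types, Bst2, Zbp1, Gbp2 and Ifi27l2a had a log2 fold change above 0 in each, and none of those 32 values passed. Irf1, a transcription factor induced by interferon gamma, went the other way, with values below 0 in 7 of 8 cell types (-0.70 to 0.19), also without a call. TMM scaling moved the log2 fold changes by 0.11 in DCs, 0.13 in inflammatory myeloid cells and -0.14 in tumor cells compared with plain CPM. No called member changed direction with it, while Usp18 in DCs, Cmpk2 and Gbp3 in inflammatory myeloid cells, Iigp1 in tumor cells, Oas3 in ECs and Gbp5 in monocytes did. The UMIs of 16 members may hold molecules of an overlapping gene. The overlap is on the same strand for 7 of them (Irf9, Gbp7, Irgm2, Igtp, Ifi47, Rtp4 and Parp14) and on the opposite strand for 11 (Usp18, Irf1, Irf7, Oasl1, Dhx58, Gbp2, Ifi47, Ifi35, Rtp4, Trim30a and Slfn5).

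**Figure D3:**
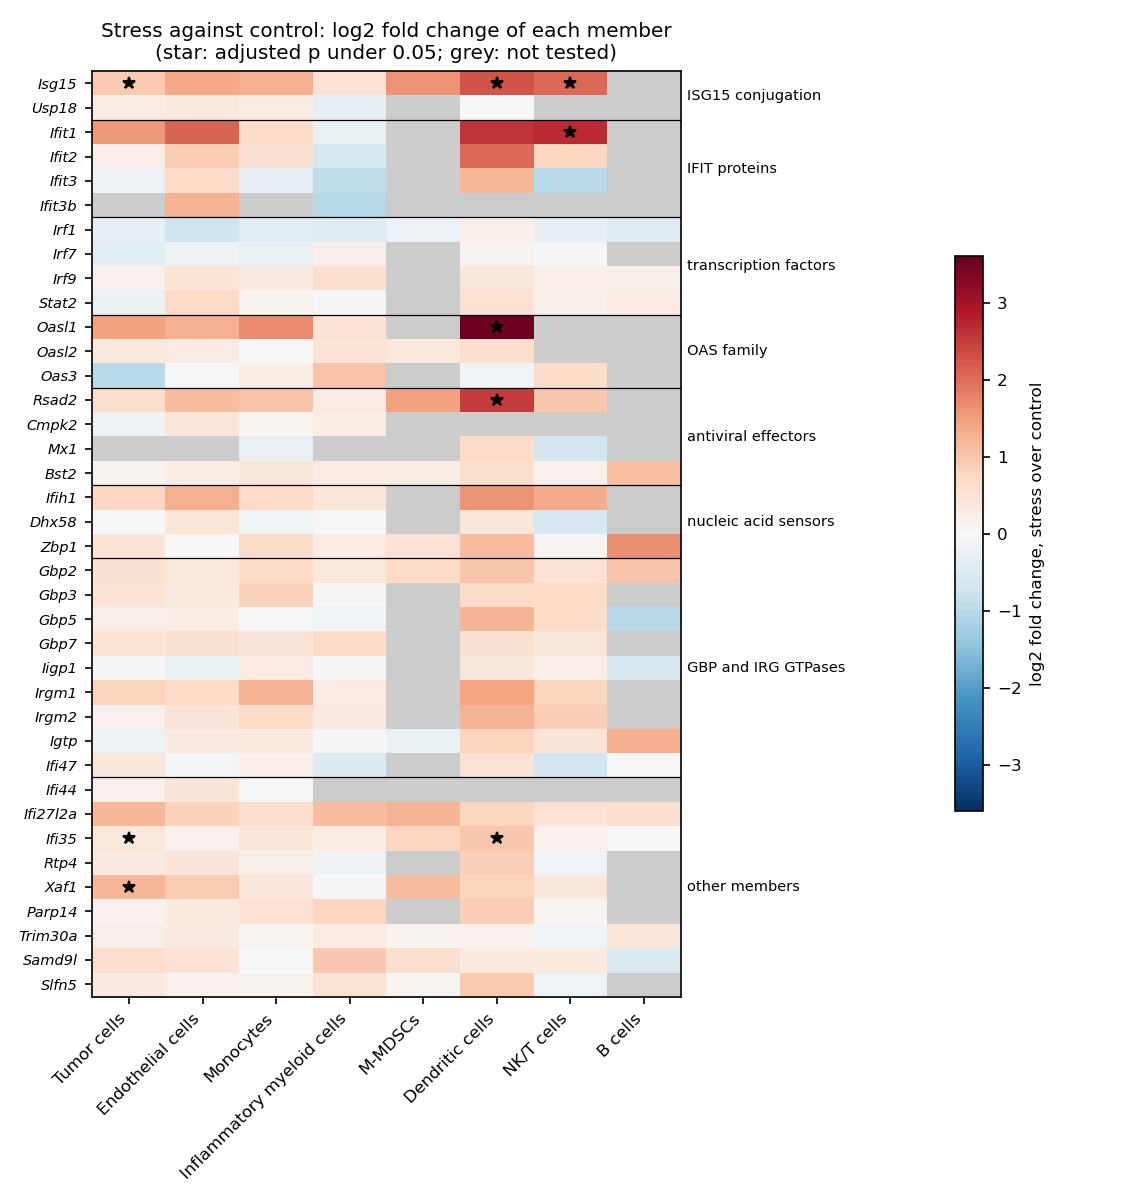
Log2 fold change of stress over control (color scale) for the 38 members (vertical axis, grouped by role) in the 8 cell types tested (horizontal axis), with a star where the adjusted p was under 0.05 and grey where a gene was not tested. The 9 stars lie in tumor cells, DCs and NK/T cells, and all mark higher levels in stress mice.

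DCs, which take up antigen and prime T cells, had the most calls. Of 35 members tested, 4 were higher in stress mice (11.4%), while 2.13% of all 10533 genes tested there were called higher and 2.64% in either direction. The median log2 fold change of the members was 0.79, that of all genes -0.02, and 34 of 35 members were above 0. In 15 members every stress mouse was higher than every control mouse, a pattern that 8.28% of all genes showed. Whether these values come from dendritic transcripts in cluster 19 was not tested.
Oasl1, an OAS-like protein that restrains IRF7 translation (chr5:114923240-114937915, plus strand), had 1.77, 13.6 and 3.74 CPM in control mice 1, 2 and 3, and 117.6, 114.9 and 46.0 CPM in stress mice. The groups did not overlap, and the log2 fold change was 3.53 (SE 0.47, adjusted p = 0.00401). The call held under all 11 alternatives, with adjusted p of at most 0.0377. Isg15 (chr4:156199424-156200818, minus strand) had 3.54, 71.2 and 44.9 CPM in control and 189, 271 and 158 CPM in stress mice. All stress values were above the highest control value (log2FC 2.26, SE 0.41, adjusted p = 0.0144), and the call was lost without control mouse 3 (adjusted p = 0.0562), without cluster 19 (1.81, 0.159) and by DESeq2 (0.152). Rsad2 (chr12:26442746-26456452, minus strand) had 0, 18.1 and 7.48 CPM in control and 58.0, 95.6 and 26.8 CPM in stress mice, again without overlap (log2FC 2.50, SE 0.54, adjusted p = 0.0313). Its call was lost without control mouse 1 (0.09), control mouse 3 (0.10), stress mouse 1 (0.068) or stress mouse 2 (0.0738), without cluster 19 (0.1) and by DESeq2 (0.16). Ifi35, a partner of NMI in interferon signaling (chr11:101448407-101458698, plus strand), had 19.5, 27.8 and 26.2 CPM in control and 44.5, 45.8 and 48.7 CPM in stress mice. This was the narrowest of the 4, with a log2 fold change of 0.98 (SE 0.19, adjusted p = 0.0173), and it was lost without control mouse 1 (0.0627), control mouse 3 (0.0567), stress mouse 1 (0.0506) or stress mouse 3 (0.0741). Without cluster 19, which leaves the cells of cluster 20 with their higher dendritic markers, the Ifi35 value fell to 0.42 (adjusted p = 0.531). Oasl1 was then the 1 member called of 33 tested (3.03%), against 0.313% of all 6387 genes.

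None of the other members in DCs passed. The 3 IFIT proteins tested, which bind foreign RNA ends, had log2FCs of 1.2 to 2.60, and the 9 GTPases of the GBP and IRG families 0.41 to 1.43. The spread within a role could be wide, since Usp18, which removes ISG15 from proteins, was near 0 beside Isg15, and Oas3 had -0.15 beside Oasl1. Ifih1, the RNA sensor MDA5, had 8.85, 28.1 and 24.7 CPM in control and 90.7, 81.1 and 29.2 CPM in stress mice (log2FC 1.61, adjusted p = 0.0575). The 4 transcription factors had 0.12 to 0.53.
Several measurements moved with this result, and their part in it was not tested. The share of DCs in cluster 20 was 25.3%, 40.5% and 25.9% in control and 50.4%, 63.3% and 52.2% in stress mice. Within cluster 20 alone Isg15 had 6.22, 167.3 and 159.4 CPM in control and 323, 596 and 289 CPM in stress mice, the first from 20 cells. In cluster 19, whose tumor markers were near those of tumor cells, none of 25 members tested passed (0.425% of all genes did), with 5 at an unadjusted p under 0.05 (8.52% of all genes), 1 call by DESeq2 (0.769%), and Oasl1 nearest at an adjusted p of 0.0502. Median UMIs per DC were 1609 to 5478 in control and 4464 to 7772 in stress mice. Summed dendritic markers were 1913 to 2515 CPM in control and 3530 to 3799 CPM in stress mice. NK/T markers were 0 to 32.9 and 78.4 to 95.8 CPM, inflammatory myeloid markers 1005 to 1555 and 2036 to 3345 CPM, and tumor markers 444 to 542 and 319 to 459 CPM. Plasmacytoid dendritic markers, which include the member Bst2, were 236 to 295 and 309 to 336 CPM. Without control mouse 1, 2 members passed in DCs, without control mouse 2 10 did, and without control mouse 3 1 did, where 0.952%, 3.66% and 1.21% of all genes passed.

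NK/T cells had 2 of 32 members higher in stress mice (6.25%), against 0.536% of all 11196 genes called higher and 0.857% in either direction. The median of the members was 0.31, with that of all genes near 0, and 7 members lay higher in all stress mice, a pattern shared by 6.8% of all genes. Isg15 had 14.3, 25.5 and 26.6 CPM in control and 110.2, 96.3 and 69.5 CPM in stress mice. Its lowest stress value was over 2 times its highest control value, and the log2 fold change of 2.03 (SE 0.25, adjusted p = 0.00179) passed under all 10 alternatives. Ifit1 had 4.09, 4.86 and 1.16 CPM in control and 26.7, 36.1 and 9.69 CPM in stress mice (log2FC 2.69, SE 0.54, adjusted p = 0.0375). The groups did not overlap, but leaving out any mouse other than stress mouse 3 ended the call (adjusted p between 0.0676 and 0.186), and DESeq2 gave it no adjusted p.
Other members of the same cells stood on either side of 0. The interferon gamma responsive GTPase Ifi47 had 49.0, 71.7 and 61.4 CPM in control and 25.6, 38.4 and 46.0 CPM in stress mice, so that all stress mice were lower (log2FC -0.68, adjusted p = 0.192). Ifit3 had a log2 fold change of -0.97 (adjusted p = 0.394), Ifih1 1.34 (0.199), Rsad2 0.97 (0.483) and Irf1 -0.33 (0.652). The most abundant members were Ifi27l2a, with 196.1, 296.1 and 298.8 CPM in control and 347.7, 331.7 and 409.9 CPM in stress mice (adjusted p = 0.246), and Bst2, with 100.1 to 146 and 115.4 to 144.5 CPM. Parp14 and Trim30a had log2 fold changes of 0.09 and -0.15.

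The Isg15 difference in NK/T cells was also seen in the share of cells with a UMI. After thinning each cell to 1000 UMIs, which left out 6 cells of control and 16 of stress mice, the share was 2.17%, 3.14% and 6.35% in control and 15.7%, 12.2% and 9.61% in stress mice. Before thinning the shares were 6.45% to 11.1% and 26.5% to 33.7%. The thinned share in tumor cells, where the gene was lowest, was 0.0951% to 0.195% in control and 0.281% to 0.485% in stress mice. Dendritic markers in NK/T cells were 53.1 to 61.7 CPM in control and 131 to 198 CPM in stress mice, and their part was not tested.

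**Figure D4:**
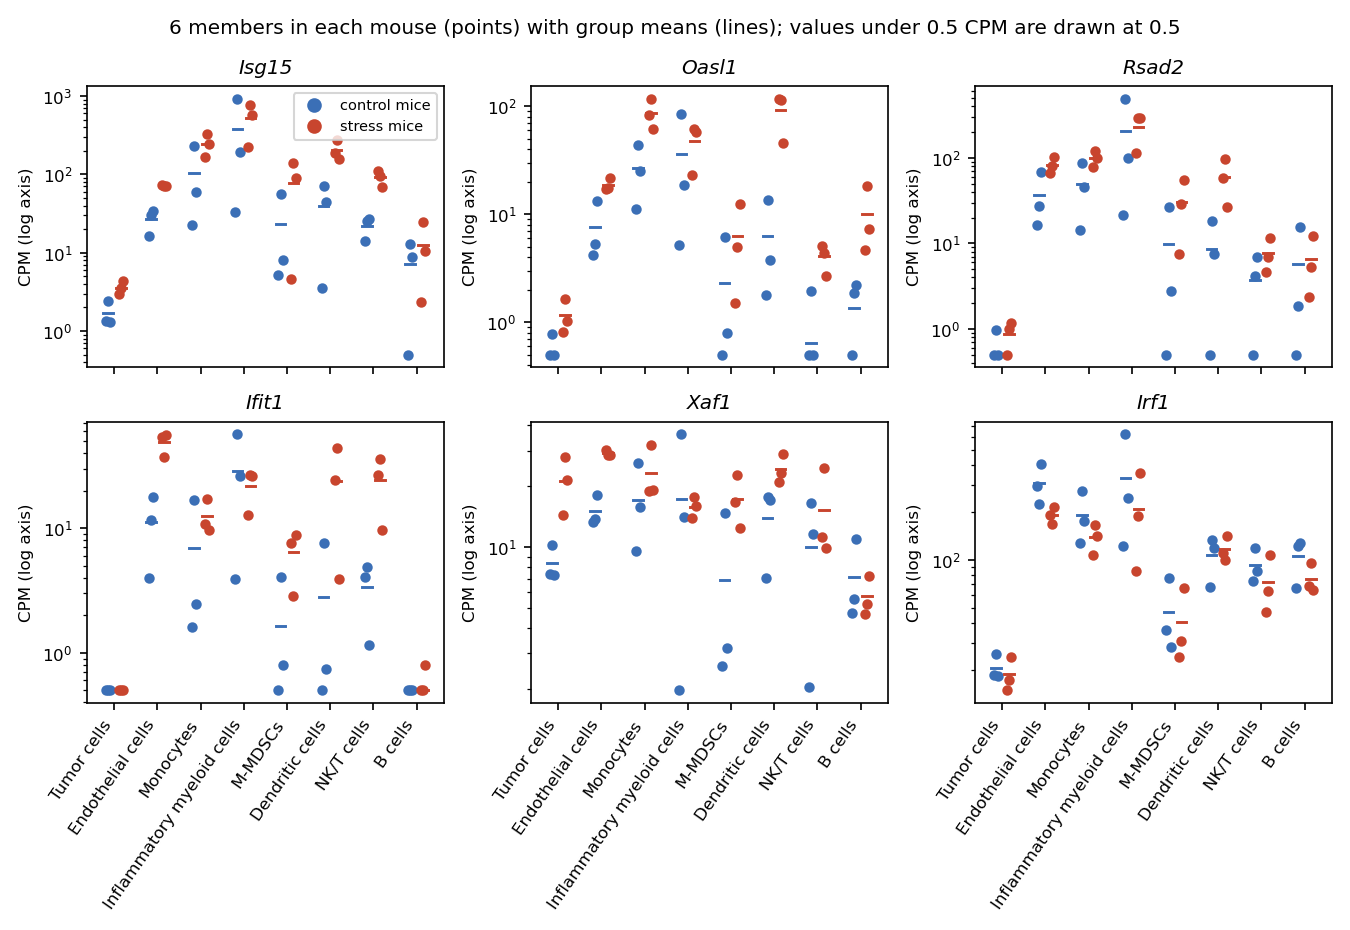
CPM (vertical log axes) of Isg15, Oasl1, Rsad2, Ifit1, Xaf1 and Irf1 in 8 cell types (horizontal axes), with 1 point for each control mouse (blue) and stress mouse (red), lines for group means, and values under 0.5 CPM drawn at 0.5. Isg15 of stress mice lies above control in ECs, DCs, NK/T cells and tumor cells, and Irf1 of stress mice lies below control in ECs.

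Tumor cells, the deepest summed samples, had 3 of 36 members higher in stress mice (8.33%), below the share of all genes called there, 12% higher and 21.4% in either direction. In 7 members the stress mice were all above the control mice (19.4%), against 28.2% of all 18856 genes. The members' median was 0.30 and that of all genes -0.01. Xaf1, a pro-apoptotic partner of XIAP (chr11:72301629-72313733, plus strand), had 7.40, 10.3 and 7.31 CPM in control and 14.4, 27.9 and 21.5 CPM in stress mice. All stress values were higher (log2FC 1.2, SE 0.22, adjusted p = 0.0115), and the call was lost without control mouse 3 (0.0511). Isg15 had 1.34, 2.40 and 1.32 CPM in control and 2.96, 3.52 and 4.30 CPM in stress mice (log2FC 0.95, SE 0.25, adjusted p = 0.0359). Ifi35 had 10.3, 9.41 and 10.5 CPM in control and 14.5, 14.4 and 14.0 CPM in stress mice (log2FC 0.37, SE 0.10, adjusted p = 0.0433). Of the 6 fits that left out a mouse, Isg15 passed in 1, that without control mouse 2, and Ifi35 in none. Without a filter on low counts Ifi35 was lost as well (0.0773).

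Among other tumor cell members, Oasl1 had 0.217, 0.771 and 0.178 CPM in control and 0.809, 1.65 and 1.02 CPM in stress mice (log2FC 1.44, adjusted p = 0.0958). Ifit1 was at most 0.367 CPM in any mouse (log2FC 1.55, adjusted p = 0.143), and Ifi27l2a ranged from 0.152 to 4.87 CPM (1.18, adjusted p = 0.422). Oas3, which makes the activator of RNase L, was the member with the lowest value, -0.96 (adjusted p = 0.217). Bst2 had 111.7, 144 and 122.3 CPM in control and 156.7, 145.3 and 151.1 CPM in stress mice, with a log2FC of 0.13. Irf1 (-0.28), Gbp2 (0.54) and Irf9 (0.14) were the remaining abundant members, and Irf9 turned to -0.09 without stress mouse 3. Marker sums also moved in tumor cells, with endothelial markers at 21.6 to 27 CPM in control and 28.7 to 40.3 CPM in stress mice, dendritic markers at 18.5 to 29.6 and 23.6 to 36.7 CPM, and the tumor markers themselves at 696 to 742 and 783 to 974 CPM. Their part in these low levels was not tested.

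In ECs, which line the tumor vessels, none of 37 members passed edgeR's test, where 0.213% of all 14090 genes did. At an unadjusted p under 0.05 there were 11, 10 of them higher in stress mice, against 15.6% of all genes, and DESeq2 called 5, against 2.99%. The median was 0.45 against -0.01 over all genes. In 12 members every stress mouse was higher than every control mouse (32.4%), a pattern shown by 12.5% of all genes. Isg15 had 16.4, 30.5 and 33.8 CPM in control and 72.8, 70.5 and 70.5 CPM in stress mice. The stress values fell within 3 CPM of each other and over 2 times the highest control value (log2FC 1.38, SE 0.25, adjusted p = 0.0991). Ifih1 had 36.3, 56.1 and 70.9 CPM in control and 130.4, 131.3 and 139.9 CPM in stress mice (log2FC 1.27, SE 0.23, adjusted p = 0.0991). Xaf1 had 13.4, 13.8 and 18 CPM in control and 30.3, 28.7 and 28.6 CPM in stress mice (log2FC 0.93, SE 0.15, adjusted p = 0.0887).
Ifit1 had 4, 11.7 and 17.8 CPM in control and 53.5, 37.2 and 56.3 CPM in stress mice (log2FC 2.11, SE 0.47, adjusted p = 0.133). Smaller differences without overlap were found for Stat2, a transcription factor of interferon signaling, with 35.3, 41.1 and 50.7 CPM in control and 58.4, 70.7 and 82.5 CPM in stress mice (0.71, adjusted p = 0.164), for Oasl1 (1.28, 0.233) and for Ifit3b (1.26, 0.224). Ifit3b and Ifit3 are near-identical copies, so reads may be split between them. Irf1 was the member lower in all stress mice, with 293, 225.3 and 404.2 CPM in control and 193.4, 168.1 and 216.4 CPM in stress mice (log2FC -0.70, SE 0.23, adjusted p = 0.230).
Of the other abundant members, Trim30a, with 74.8, 120.4 and 113.3 CPM in control and 124.3, 142 and 128.8 CPM in stress mice, was higher in all stress mice, and Iigp1, Bst2, Slfn5 and Parp14 overlapped. Iigp1 had 324.9, 279.7 and 861.7 CPM in control and 451.2, 380.1 and 453.3 CPM in stress mice, and its log2 fold change of -0.23 (adjusted p = 0.820) turned to 0.49 without control mouse 3. Bst2 (0.26), Slfn5 (0.15), Parp14 (0.36) and Trim30a (0.33) had adjusted p between 0.429 and 0.620. Beside these values, summed endothelial markers were 5296 to 6756 CPM in control and 7119 to 7473 CPM in stress mice, and dendritic markers 178.8 to 254.4 and 260.1 to 353.7 CPM. Cluster 16, described below, held 30.6% to 40.3% of the EC UMIs of control and 17.4% to 33.8% of those of stress mice. Cluster 8, with the highest summed member level of the endothelial clusters fitted, held 28.4% to 30.2% of the ECs of control and 18% to 25.3% of those of stress mice. The part of these in the values was not tested. EC cluster 15 took 1.73% to 5.35% of the ECs of control and 11.3% to 23.1% of those of stress mice. Without it none of 37 members passed either, against 0.235% of all 14040 genes.

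The endothelial clusters were also fitted one by one, and differences between clusters were not tested. In cluster 8, Ifih1 had 52.7, 96.6 and 135.8 CPM in control and 484.6, 401.2 and 303.1 CPM in stress mice (log2FC 2.06, adjusted p = 0.0596). Isg15 had 31.8, 41.7 and 66.4 CPM in control and 261, 153.4 and 134.5 CPM in stress mice (1.97, 0.0750), and Ifit1 5.86, 20.4 and 41.7 against 210, 110.7 and 123 CPM (2.70, 0.113). Rsad2 had 20.9, 42.7 and 120.1 CPM in control and 227.4, 243.7 and 243.9 CPM in stress mice (1.95, 0.262). None of 36 members passed in cluster 8, against 0.278% of all genes, with 15 at an unadjusted p under 0.05 (10.8% of all genes) and 4 called by DESeq2 (1.12%). In 14 members (38.9%) all stress mice were higher, a pattern shown by 8.18% of all genes. Dendritic markers in this cluster were 190 to 259 CPM in control and 270 to 340 CPM in stress mice, and red cell markers 2.26 to 235 and 249 to 482 CPM, and their part was not tested. Cluster 2, the largest endothelial cluster, also had none of 36 past the test (0.196% of all genes), with 5 unadjusted (13.5%) and 1 by DESeq2 (1.23%). Its log2 fold changes were 0.54 for Isg15, 0.15 for Ifih1 and 0.90 for Ifit1. Irf1 was lower in all stress mice there, with 205.1, 149.3 and 258.8 CPM in control and 97.8, 98.8 and 121.1 CPM in stress mice (-0.98, adjusted p = 0.189). The same held for Irf1 in clusters 16 (-0.71) and 18 (-0.68). In cluster 8, where its mean was the highest of these clusters, Irf1 overlapped between groups, with 855.7, 536.3 and 1031 CPM in control and 720.1, 500.4 and 474.5 CPM in stress mice. In cluster 18 none of 30 members passed (1.02% of all genes), with 9 unadjusted (17.2%) and 1 by DESeq2 (1.58%).

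**Figure D5:**
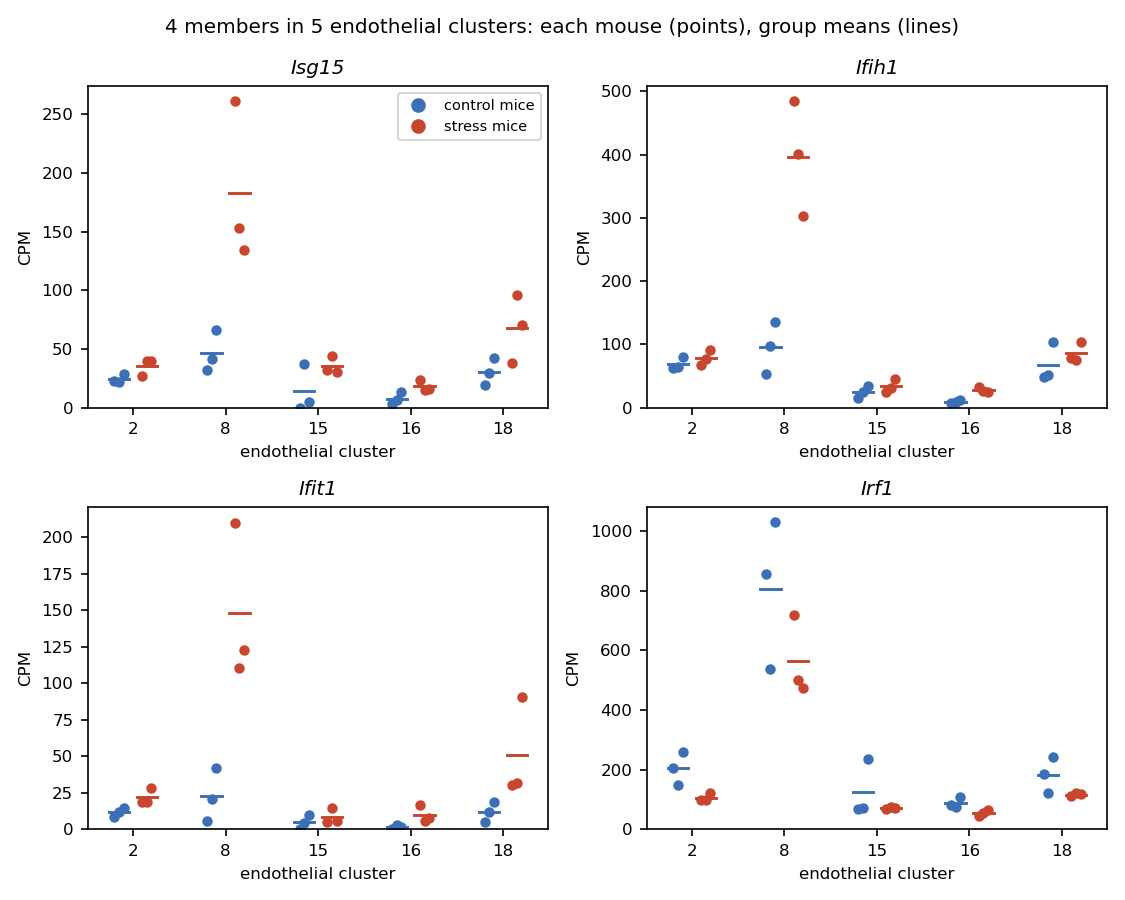
CPM (vertical axes, from 0) of Isg15, Ifih1, Ifit1 and Irf1 in endothelial clusters 2, 8, 15, 16 and 18 (horizontal axes), with 1 point for each control mouse (blue) and stress mouse (red) and lines for group means. In cluster 8 the stress points of Ifih1 (303.1 to 484.6 CPM) lie above the control points (52.7 to 135.8 CPM), and in cluster 2 the points of Isg15 and Ifih1 overlap.

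Cluster 16 was the endothelial cluster with calls. There, 3 of 32 members were higher in stress mice (9.38%), where 0.387% of all 11632 genes were called higher and 0.636% in either direction. Xaf1 had 6.55, 8.08 and 6.90 CPM in control and 30.0, 30.2 and 34.4 CPM in stress mice, at least 3 times as high in each stress mouse as in any control mouse (log2FC 2.10, SE 0.17, adjusted p = 0.0011). It passed under all 10 alternatives. Ifih1 had 7.91, 9.35 and 11.3 CPM in control and 33.1, 26.4 and 24.7 CPM in stress mice (1.54, SE 0.21, adjusted p = 0.0153), and was lost without control mouse 1 (0.0871), control mouse 3 (0.063) or stress mouse 1 (0.055). Rsad2 had 4.97, 4.55 and 7.73 CPM in control and 27.4, 15.3 and 19.3 CPM in stress mice (1.84, SE 0.31, adjusted p = 0.0368), and was kept in 2 of the 6 fits that left out a mouse, those without control mouse 2 or stress mouse 2 (up to 0.158 in the others). This cluster goes against its label in part. Its summed tumor markers were 456 to 714 CPM, against 25.5 to 49.8 CPM in cluster 8 and 696 to 974 CPM in tumor cells, and its endothelial markers were 1170 to 2025 CPM, against 6719 to 9687 CPM in cluster 8. B cell markers reached 860.8 CPM in stress mouse 3, and dendritic markers were 58.1 to 79.8 CPM in control and 96.6 to 106 CPM in stress mice. Whether these calls come from endothelial transcripts was not tested.

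Monocytes had none of 37 members past edgeR's test, where 0.122% of all 12251 genes passed, 2 were under an unadjusted p of 0.05 (12% of all genes), and DESeq2 called 1 (1.47%). The median was 0.33, against -0.01 over all genes, and 1 member lay higher in all stress mice, a pattern that 6.82% of all genes showed. That member was Oasl1, with 11.2, 43.6 and 25.2 CPM in control and 83.3, 117.7 and 61.4 CPM in stress mice (log2FC 1.71, SE 0.42, adjusted p = 0.204). In monocytes mice with the same number deviated together, though the labels do not say what a shared number means. A block by number is therefore no paired test. With this block Oasl1 was the 1 member called (adjusted p = 0.0334). That is 2.7% of the members, near the 1.67% of all genes called in that fit. DESeq2 gave it 0.00506. Isg15 had 22.4, 229.7 and 59.8 CPM in control and 164.3, 324.3 and 246.9 CPM in stress mice, so that control mouse 2 exceeded stress mouse 1 (1.28, SE 0.68, adjusted p = 0.492). Irgm1 (1.26), Rsad2 (1.02) and Gbp3 (0.84) followed, with adjusted p between 0.411 and 0.504. The abundant members Ifi27l2a (0.62), Gbp2 (0.71), Bst2 (0.41) and Irf1 (-0.42) had adjusted p between 0.575 and 0.665. Trim30a had 0.09 and changed sign without control mouse 1 (-0.29), stress mouse 2 (-0.17) or cluster 13 (-0.02). In the monocyte clusters, none of 37 members passed in cluster 11 (0.102% of all genes), none of 36 in cluster 12 (0.218%) and none of 30 in cluster 13 (0.0984%). At an unadjusted p there were 5, 8 and 3, against 11.4%, 13% and 8.69% of all genes, and by DESeq2 1, 1 and 0, against 1.19%, 1.25% and 0.896%. Hepatocyte markers in monocytes were 0 to 1.48 CPM in control and 9.24 to 18.9 CPM in stress mice, NK/T markers 1.6 to 41.9 and 47 to 102.8 CPM, stellate markers 2.23 to 3.33 and 3.46 to 21.7 CPM, and neutrophil markers 489.9 to 602 and 88.4 to 333.1 CPM. Inflammatory myeloid markers were 8137 to 11120 CPM in control and 10330 to 18770 CPM in stress mice, with 3 of 4 genes higher in all stress mice. Cluster 13 held 57.6%, 23.1% and 51.5% of the monocytes of control and 38.1%, 12.1% and 31.0% of those of stress mice. Its mean summed member level was 1500 CPM, against 3034 CPM in cluster 11 and 3418 CPM in cluster 12. The part of these markers and shares in the monocyte values was not tested.

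Inflammatory myeloid cells had the highest mean summed level of the cell types, though not the highest level in each mouse. They showed no stress difference that could be told from the spread between mice. None of 36 members passed, as none of all 9219 genes did (0%), none was under an unadjusted p of 0.05 (3.96% of all genes were), and DESeq2 called 0 (0.0651%). Isg15 had 33.4, 921.4 and 195.4 CPM in control and 221.7, 776.1 and 573.4 CPM in stress mice (log2FC 0.53, adjusted p = 0.994). Control mouse 2 held the highest level in 29 of the 36 members. Without it, the log2 ratio of the summed levels was 1.5 in place of 0.23. In B cells none of 14 members passed (0.483% of all genes), and in M-MDSCs none of 14 (0.561%). B cells had 3 members at an unadjusted p under 0.05 (11.1% of all genes) and 1 by DESeq2 (0.932%), and M-MDSCs 2 (9.56%) and 0 (0.847%).

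Whether the stress effect differed between cell types was tested for 3 pairs of cell types taken from the same mice. DCs and NK/T cells were in none of these pairs, so a difference of their stress effect from that of other cell types was not tested. None of 38 members passed for ECs minus tumor cells (0.13% of all genes did), for monocytes minus tumor cells (0.0634%) or for ECs minus monocytes (0%). At an unadjusted p under 0.05 there were 1, 2 and 3 members, against 12.2%, 7.58% and 8.31% of all genes, and DESeq2 called 1, 0 and 0, against 1.73%, 0.655% and 0.179%. The nearest was Stat2, whose log2 fold change was 0.87 higher in ECs than in tumor cells (SE 0.20, adjusted p = 0.176). For Isg15 the same difference was 0.37 (SE 0.25, adjusted p = 0.573). A call in tumor cells beside none in ECs therefore does not show that the stress effect differed between these cell types. Nor does the test show that it was equal.

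Few of the other genes of the pathway passed the test. Of 104 listed ligands, receptors, kinases, sensors, inhibitors and other induced genes, 98 were in the files. In DCs 5 of 64 tested were higher in stress mice and none was lower, where 2.13% of all genes were called higher and 0.513% lower. Cxcl10, the chemokine that draws T cells, had 37.2, 186.5 and 64.3 CPM in control and 219.3, 453.4 and 300.5 CPM in stress mice (log2FC 1.77, adjusted p = 0.0409). Irf8, a factor that DCs need to develop, had 88.5, 197 and 184.7 CPM in control and 285.6, 415.1 and 399.8 CPM in stress mice (1.30, adjusted p = 0.0144). Jak2 (0.94, 0.0309), the lysosomal reductase gene Ifi30 (1.03, 0.0317) and Phf11a (1.35, 0.0339) were the others. Of these 5, Irf8 kept its call in 5 of the 6 fits that left out a mouse, and the rest in at most 1. Without cluster 19 all 5 calls were lost. The log2 fold changes were then 0.65 for Irf8 (adjusted p = 0.43), 0.33 for Jak2 (0.683), 0.47 for Ifi30 (0.571) and 0.52 for Phf11a (0.52), while Cxcl10 had 1.88 (0.202). By DESeq2 Cxcl10 (0.129) and Phf11a (0.0563) were lost.
In NK/T cells 2 of 63 were higher, against 0.536% of all genes. Cxcl10 had 16.3, 49.1 and 10.4 CPM in control and 116.4, 116.4 and 88.0 CPM in stress mice (1.83, adjusted p = 0.0254), and Jak2 had a log2 fold change of 0.79 (adjusted p = 0.0481). Leaving out each mouse kept the first call in 3 and the second in 1 of 6 fits. In ECs 1 of 72 was higher, against 0.106% of all genes. It was Irf2, which competes with IRF1, with 110.9, 120.9 and 119.1 CPM in control and 184.4, 197.6 and 191.2 CPM in stress mice. The groups were far apart relative to their spread (0.68, SE 0.09, adjusted p = 0.0473), yet the call was lost in all 6 fits without a mouse (0.058 to 0.252). In tumor cells 4 of 67 were higher and 6 lower, both below the shares of all genes called there, 12% higher and 9.46% lower. Cgas, the cytosolic DNA sensor, had 0.240, 0.277 and 0.191 CPM in control and 1.92, 1.58 and 1.75 CPM in stress mice (2.75, SE 0.23, adjusted p = 0.00360), and passed under all 10 alternatives. Parp12 (1.17, 0.0467), Phf11d (1.02, 0.0422) and the receptor chain Ifngr2 (0.46, 0.0307) were the other higher ones, and Phf11d was lost by DESeq2 (0.0861). The lower ones were the ISG15-conjugating enzyme Ube2l6 (-0.79, 0.0248), the adaptor Ticam1 (-0.72, 0.0254), Stat3 (-0.62, 0.0158), Ptpn6 (-0.46, 0.0426), Tor3a (-0.45, 0.0254) and Pias1 (-0.35, 0.0233). Unlike Cgas, these 9 calls were all lost without control mouse 1, and each held in at most 2 of the 6 fits that left out a mouse (adjusted p up to 0.157). None passed in B cells (31 tested), inflammatory myeloid cells (61), M-MDSCs (34) or monocytes (74), against the shares of all genes given above.
Most ligands were below the filter on low counts. Ifng in NK/T cells had 202.3, 212.6 and 145.9 CPM in control and 213.3, 198 and 149.2 CPM in stress mice, with full overlap. Ifnb1 in monocytes was below the filter on low counts and was not tested. It had 0, 0.246 and 0.495 CPM in control and 3.02, 1.26 and 2.74 CPM in stress mice, from 63 UMIs in all.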

How the data were processed

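Tumors of 3 control and 3 stress mice were sequenced by the authors as 10x Genomics libraries, and the authors deposited UMI counts, raw and per cell, with a table of clusters and cell types. Their methods state removal of doublets with Scrublet and of cells over the mitochondrial limit, and the mm10 genome. The strand setting of the counting is not given in the sources used here. Annotated cells were kept without a further doublet call. The counts of a cell type or cluster were added up within each mouse. They were fitted in R 4.3.3 by edgeR 4.0.16 (quasi-likelihood test, TMM, filterByExpr, Benjamini-Hochberg adjustment, threshold 0.05) if each mouse had at least 10 cells of the type or 50 of the endothelial, monocyte or DC cluster. The SE is the absolute log2 fold change over the square root of F. This fit was tested on simulated data, with changes placed in genes above a minimum count. Of 100 genes with an absolute log2 change of 1, 72 were recovered in ECs and 58 in monocytes. With a change of 2 all 100 were recovered in both. False calls numbered 10 and 6. Alternatives were DESeq2 1.42.0, RLE in place of TMM, all genes with a UMI, a minimum absolute log2 fold change of 0.15, leaving out each mouse or cluster 13, 15 or 19, thinning, other scalings of the sums, and the replicate number as a block. Deviations of same-numbered mice from their group means correlated over 0.1 in all 3 pairs in monocytes (0.515, 0.455 and 0.16), inflammatory myeloid cells and cluster 13, and not elsewhere. Mice with different numbers were not compared in this way, so these values do not show that the mice were paired.

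Members, marker lists and pathway lists were chosen with earlier results of these data known. Named were all members past the threshold, in ECs, monocytes, NK/T and tumor cells also the 5 with the largest absolute log2 fold change and the 6 with the highest mean CPM, and up to 6 pathway genes past the threshold per cell type, largest change first. Other members, the remaining 4 pathway calls of tumor cells, Ifng, Ifnb1 and the values by cluster were named after their values were seen. Another motif searched in the promoters is not reported here. Gene positions are from GENCODE M21 (GRCm38), which held 32061 of 34099 gene identifiers. The labels name the mice as separate animals, so p-values measure the spread between animals. Python 3.11.15, pandas 2.3.3, numpy 2.4.6 and matplotlib 3.10.9 were used.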

Additional observations from a re-analysis of the deposited data

Results flagged for a closer look

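For 3 results outside the list of members the stress effect differed between cell types by a test of the difference itself (edgeR's quasi-likelihood test of the interaction, with mouse as a term, Benjamini-Hochberg adjusted over all genes). The log2 fold change of Irf2 was 0.85 higher in ECs than in tumor cells (SE 0.12, adjusted p = 0.0397). For Cgas the log2 fold change was lower in ECs and in monocytes than in tumor cells. The difference was -2.60 for ECs minus tumor cells (SE 0.29, adjusted p = 0.0162) and -2.95 for monocytes minus tumor cells (SE 0.33, adjusted p = 0.0275). Cgas levels in tumor cells were under 2 CPM in every mouse. Of the 6 fits that left out a mouse, Irf2 passed in 1, that without control mouse 2 (adjusted p up to 0.189 in the others). Cgas in ECs passed in 3 and was lost without control mouse 1 (0.0761), control mouse 3 (0.0727) or stress mouse 2 (0.0766). Cgas in monocytes passed in 4 and was lost without control mouse 3 (0.125) or stress mouse 3 (0.0814).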

How the results depend on the processing

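Of the single-gene results, 526 settings kept the direction and the side of the threshold, 110 lost the threshold, 20 gained it and 5 changed sign. The 526 include genes without a call that stayed without one, while the 110 can come from called genes only. These counts therefore do not give the share of calls that held. The sign changes were Iigp1 in ECs without control mouse 3 (0.49), Trim30a in monocytes without control mouse 1 (-0.29), without stress mouse 2 (-0.17) and without cluster 13 (-0.023), and Irf9 in tumor cells without stress mouse 3 (-0.093), all of them log2 fold changes. Over the mice left out, these 3 genes ranged from -0.50 to 0.49, -0.29 to 0.70 and -0.093 to 0.29. The cause of each change was not tested. With DESeq2 the number of members called was 5 in ECs, in tumor cells and in cluster 16, 4 in DCs and cluster 8, and 1 each in NK/T cells, monocytes, B cells, clusters 2, 11, 12, 18 and 19 and the difference of ECs and tumor cells. Without a filter on low counts it was 15 in DCs, 14 in cluster 8, 6 in clusters 12 and 16, 4 in ECs, NK/T cells and clusters 11 and 13, 3 in M-MDSCs and cluster 18, 2 in B cells, tumor cells and cluster 19, and 1 in monocytes and cluster 2. With the replicate number as a block it was 15 in DCs, 7 in tumor cells, 4 in cluster 16, 3 in clusters 11 and 12, 2 in ECs, NK/T cells and clusters 18 and 19, and 1 in monocytes, B cells, M-MDSCs and cluster 2. The labels do not say what a shared number means, so these counts are no paired result in any cell type. In tumor cells 26.5% of all genes were called by DESeq2, 14.4% without a filter and 27% with the block, and in the other fits 0.0651% to 3.39%, 0.39% to 3.79% and 0.0976% to 6.28%. DCs without cluster 19 had 1 member called (3.03%, against 0.313% of all genes). Leaving out each mouse gave 1 to 10 members in DCs, 0 to 8 in tumor cells, 1 to 2 in NK/T cells, 1 to 3 in cluster 16, 0 to 3 in M-MDSCs and cluster 12, 0 to 2 in clusters 8 and 19, 0 to 1 in clusters 2, 11 and 18, and 0 to 0 in ECs, monocytes, B cells, inflammatory myeloid cells, cluster 13 and the 3 differences between cell types. The count of 10 in DCs (29.4%, against 3.66% of all genes) and that of 8 in tumor cells (22.2%, against 29.9%) both came without control mouse 2. Over these fits 0.668% to 3.66% of all genes were called in DCs, 6.14% to 29.9% in tumor cells, 0.317% to 1.19% in NK/T cells and at most 2.09% in each of the others. The log2 ratio of the summed levels ranged from 0.64 to 1.36 in DCs, 0.28 to 0.47 in tumor cells, 0.07 to 0.55 in ECs, 0.17 to 0.44 in NK/T cells, 0.09 to 1.06 in monocytes, 0.24 to 0.78 in B cells, 0.33 to 1.24 in M-MDSCs and -0.26 to 1.5 in inflammatory myeloid cells. Thinning cells to 1000 UMIs moved it to 1.37 in M-MDSCs. A shorter motif, AANNGAAA, was found in 80.0% of the 30 promoters, against 26.7% of all. With 3 mice a group and between 564993 and 6718767 UMIs of DCs per mouse, 1 UMI is 1.77 CPM in the smallest DC sample, so genes at a few CPM rest on few UMIs there.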
